A study of Mus musculus with 8 samples.

Results

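The 34 genes described here encode proteins that fold or tether chromosomes: CTCF, cohesin with the factors that load, release and acetylate it, the enhancer looping proteins YY1 and LDB1, both condensins, the lamins with the lamin B receptor, topoisomerase II beta and 4 high mobility group (HMG) proteins. They were taken from a fixed list of symbols by their Ensembl identifiers and all 34 were present in the 30731 genes shared by both deposited gene tables, which hold 53465 genes for 3T3 and 31053 for Scid.adh. The RNA-seq libraries came from 2 mouse cell lines, with 2 libraries in each of 4 groups. NIH-3T3, an embryonic fibroblast line, was labelled wild type and untreated, or Tcf7 induced with the treatment TCF1 induced. Scid.adh, a thymic lymphoma line that stands for DN3 thymocytes in the sample titles, was labelled wild type with the empty vector, or Tcf7-/- with the treatment TCF1 KO. Headers of the 3T3 files put all 4 of those libraries at 72 hours and name Cas9 in all 4 and doxycycline in the induced libraries alone, so that the induced cells also differed from normal cells by the drug. The promoter that drives the induced Tcf7, and whether each line was a single clone, are not stated here. Separate cultures are not stated for the libraries of a group, so every p-value reflects the spread between library preparations, which may be technical.

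TCF-1, the product of Tcf7, binds DNA through an HMG box, and the series concerns its part in genome folding during T cell development. Cohesin is a ring of SMC proteins that extrudes DNA into loops until it meets CTCF bound to DNA or is released. Condensins are related SMC complexes that compact chromosomes, chiefly for mitosis, while lamins and the lamin B receptor hold heterochromatin at the nuclear edge, and HMG proteins bend or coat DNA. A change in genome folding can come with or without a change in the amount of these proteins, and the libraries measured only the transcripts.

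Tcf7 itself was at 14.5 and 14.6 CPM (counts scaled by TMM to a common library size) in normal 3T3 cells and at 946 and 972 CPM in induced cells. Empty-vector Scid.adh libraries held 1318 and 1325 CPM and knockout libraries 646 and 624 CPM, so the 2 groups of each line did not overlap. Its log2 fold change was 6.04 (SE 0.05) in 3T3 and -1.06 (SE 0.06) in Scid.adh, with edgeR adjusted p-values of 1.16e-51 and 5.06e-08. Counts over the whole gene do not tell an intact transcript from one with an edited exon. Total counts over genes ran from 13850213 to 17523677 in 3T3 and from 7740198 to 10392402 in Scid.adh. The 2 knockout libraries held 20406 and 20463 genes with at least 1 count and the 2 empty-vector libraries, though deeper, 18084 and 18041. The 10 fibroblast markers summed to 27360 and 26772 CPM in normal and to 24812 and 24702 CPM in induced 3T3 cells. Of these 10, 4 were called higher and 4 lower, beside 18.5% and 18.3% of all tested genes. The log2 fold changes ran from -2.08 for Postn to 1.16 for Fbn1. The 10 T lineage markers summed to at most 19.2 CPM in the 3T3 libraries. In Scid.adh the T lineage markers summed to 4499 and 4452 CPM in empty-vector and to 3510 and 3614 CPM in knockout libraries. There the fibroblast list summed to 122 and 127 CPM in empty-vector libraries, nearly all of it Pdgfrb, and to 12.3 and 12.0 CPM in the knockout. Pdgfrb was the 1 of 4 tested markers of that list that fell, while Col1a1 (log2 fold change 2.22), Col1a2 (1.78) and Pdgfra (2.27) rose from under 1 CPM. In such bulk RNA, fewer cells of a type and less RNA per cell cannot be told apart, and the part of these marker levels in the values that follow was not tested.

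Induction of TCF-1 in 3T3 cells moved 13 of the 34 genes, each by less than 1.5-fold. Transcripts of Top2b, Lmnb1, Hmgb1 and Hmga1 rose, and those of Rad21, Stag2, Nipbl, Yy1, Ldb1, Smc2, Ncapg2, Lbr and Hmga2 fell. A gene was called at an adjusted p under 0.05 in the quasi-likelihood test of edgeR, after Benjamini-Hochberg adjustment over all tested genes. The 4 rises and 9 falls made up 38.2% of the genes of the set, beside 36.8% called among all 18185 tested genes, 18.5% higher and 18.3% lower, so the share of called genes was near the background. Fold changes were small for called genes: the median absolute log2 fold change was 0.22 over the 13 genes and 0.40 over all called genes. Of the 13, 5 changed by more than 1.2-fold and 0 by more than 1.5-fold, against 72.3% and 32.4% of all called genes. The median log2 fold change of the 34 genes was -0.07, between -0.35 for Ncapg2 and 0.34 for Hmga1, and that of all tested genes was 0.00. The 34 genes were also abundant, with a median level of 89.8 CPM against 12.9 CPM over all tested genes. Called shares rose with level. Under 10 CPM, 9.84% of all tested genes were called higher and 9.86% lower. From 10 to 100 CPM these shares were 25.5% and 21.5%, beside 3 rises and 3 falls among 15 genes of the set. From 100 to 1000 CPM they were 27.0% and 37.8%, beside 1 rise and 6 falls among 16 genes of the set. The number of falls moved from 9 to 4 without normal library 2 and to 14 without induced library 2, and 8 of the 13 calls held under all 10 alternatives.

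Loss of Tcf7 in Scid.adh cells moved 11 of the 32 genes that passed the filter on low counts. Transcripts of Stag2, Esco1, Smc4 and Top2b were higher in the knockout, and those of Rad21, Smc1a, Ncaph2, Lmnb2, Hmgb1, Hmgb2 and Hmga1 were lower. The remaining 2 genes, Lmna and Hmga2, had at most 12 counts in any Scid.adh library and were not tested. The called share was 34.4%, beside 31.5% among all 11941 tested genes, 15.6% higher and 15.9% lower, and here too it was near the background. The median log2 fold change was -0.05 over the set, from -0.58 for Hmga1 to 0.37 for Esco1, and -0.00 over all tested genes. Over the 11 called genes the median absolute log2 fold change was 0.26, against 0.55 over all called genes, and 4 of 11 passed 1.2-fold and 0 passed 1.5-fold, against 88.1% and 47.7% of all called genes. These counts changed when a library was left out, which leaves 1 library in a group. They fell without either empty-vector library, as did the number of calls over all genes, and rose without either knockout library. The log2 fold changes moved less. Rad21 had -0.20 without empty-vector library 1 and -0.23 without library 2, against -0.20 with every library. Smc1a had -0.25 and -0.29, against -0.26.

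**Figure D1:**
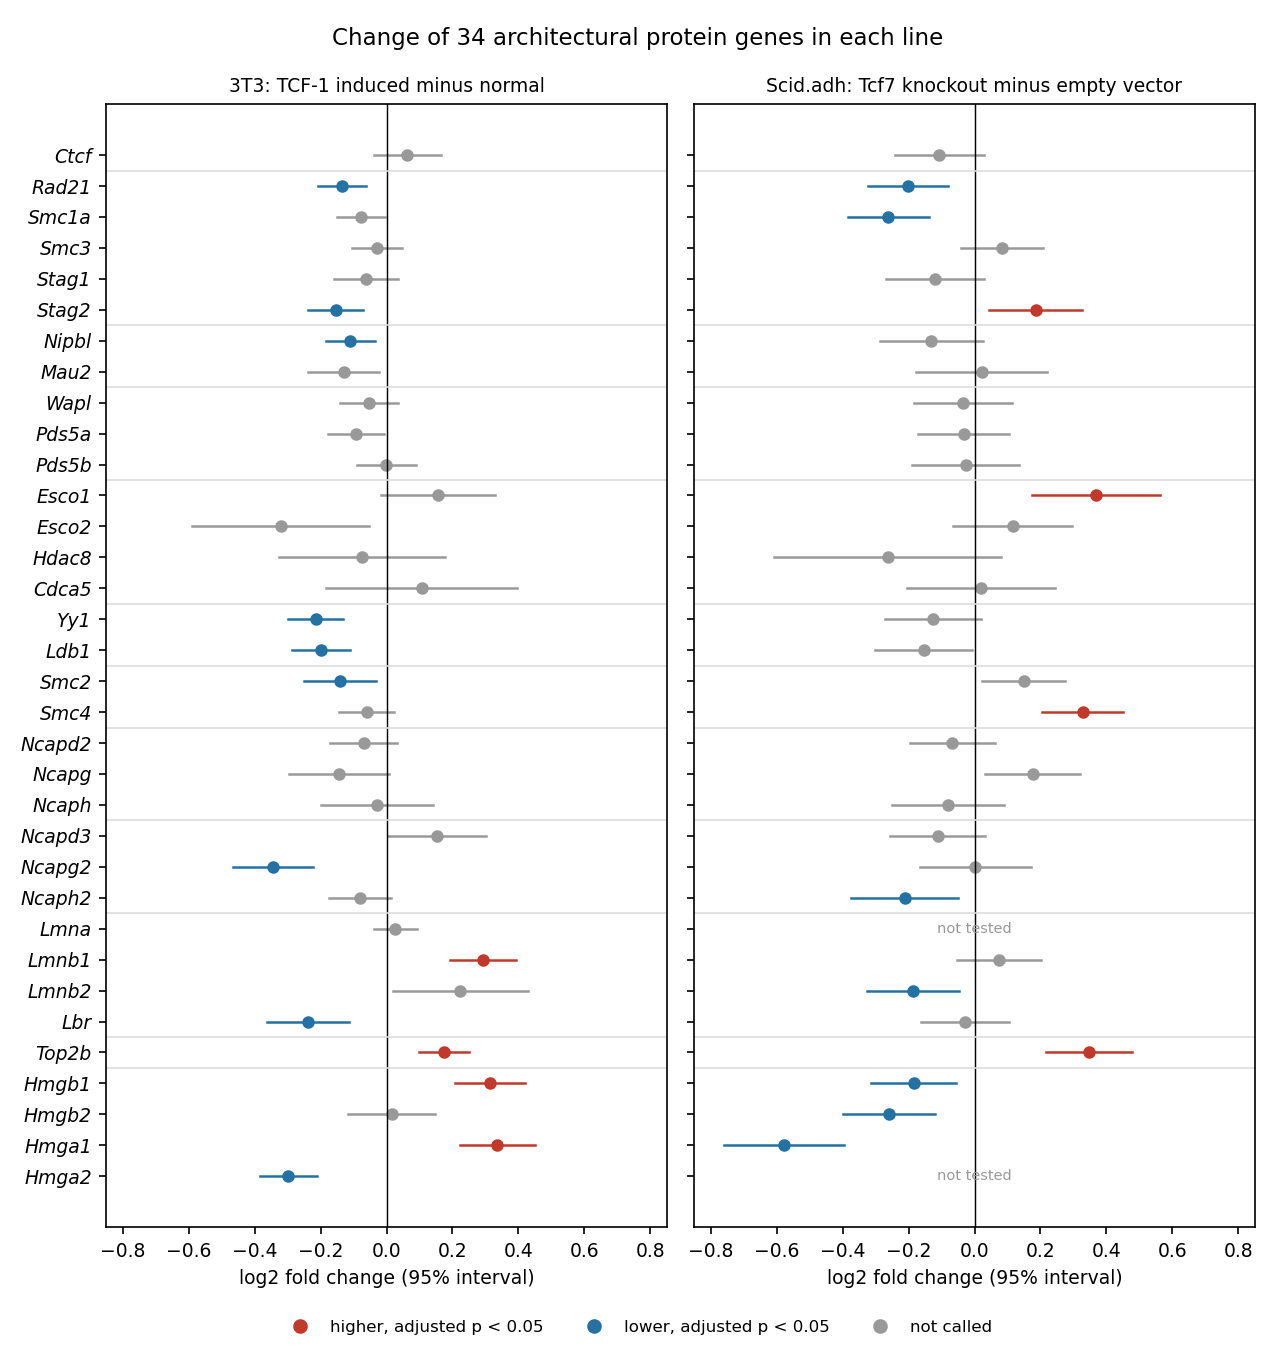
Log2 fold change (point) with its 95% interval (line) of the 34 genes, ordered by complex from top to bottom, for induced minus normal 3T3 cells (left) and knockout minus empty-vector Scid.adh cells (right), n = 2 libraries per group. Red marks a gene higher and blue a gene lower at an adjusted p under 0.05 in edgeR, grey a gene not called; all points lie between -0.58 and 0.37, and Lmna and Hmga2 were not tested in Scid.adh.

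In Scid.adh the fold change depended on the level of the gene across the whole transcriptome. Genes under 10 CPM had a median log2 fold change of 0.39 in the knockout, and genes between 100 and 1000 CPM had a median of -0.11, with 7.58% of 2546 such genes called higher and 32.8% called lower. Of the 32 tested genes of the set, 26 lay in that upper class, where 3 were called higher and 6 lower and their median was -0.07. In 3T3 the medians of the level classes stayed between -0.06 and 0.03. When log2 fold changes were centred along the level of the gene by loess, the Scid.adh calls in the set went from 4 higher and 7 lower to 8 higher and 1 lower, beside 12.4% and 12.6% of all tested genes. The falls of Rad21 (-0.02 after this centring), Smc1a (-0.09), Hmgb2 (-0.10), Hmgb1 (-0.06), Lmnb2 (-0.09) and Ncaph2 (-0.11) were then no longer called, and the fall of Hmga1 was. Smc3 (0.25), Smc2 (0.30), Ncapg (0.26) and Lmnb1 (0.25) were called higher in the knockout with the centring, so the direction of the set as a whole in Scid.adh rested on the scaling.

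**Figure D2:**
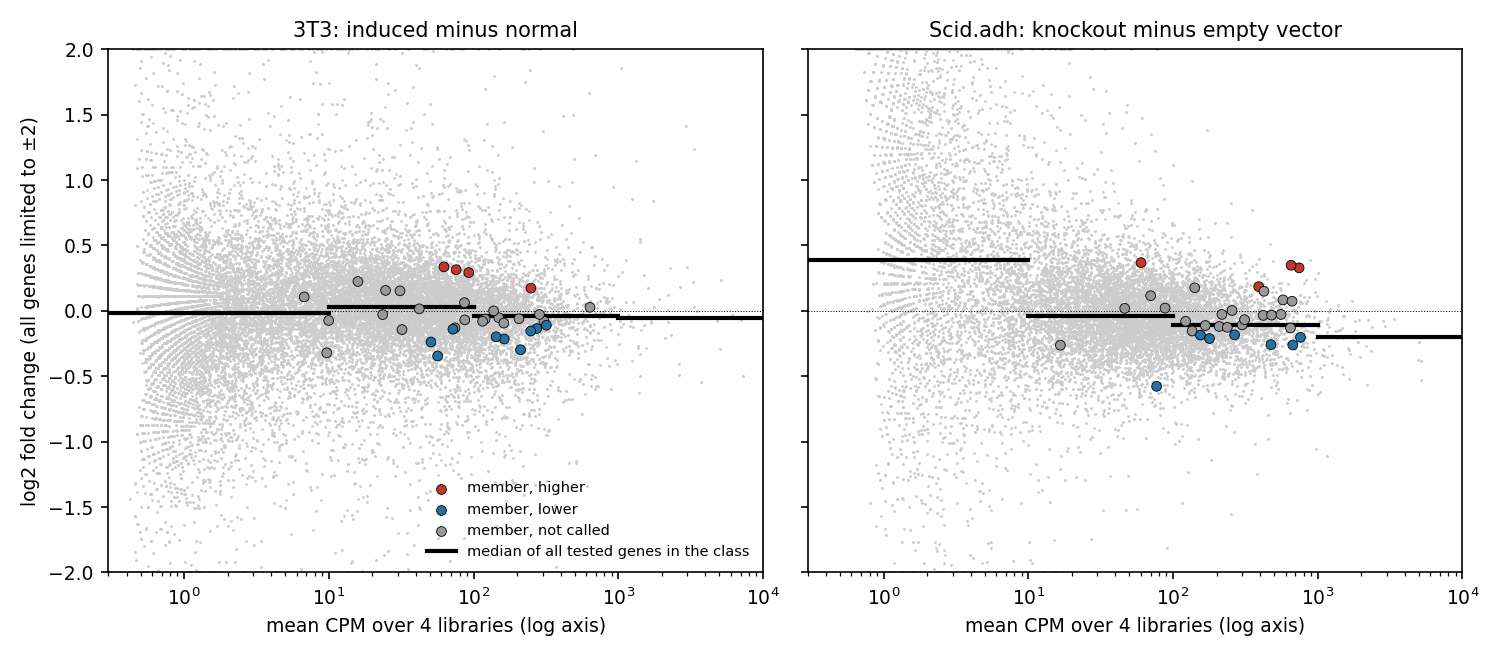
Log2 fold change against mean CPM over the 4 libraries of a line (log axis) for all tested genes (small grey points, limited to 2 in either direction) and for the genes of the set (large points; red higher, blue lower, grey not called). Black bars give the median of all tested genes under 10, from 10 to 100, from 100 to 1000 and above 1000 CPM, which step down from 0.39 to -0.20 in Scid.adh and stay between -0.06 and 0.03 in 3T3.

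CTCF, the zinc finger protein whose bound sites stop cohesin, was not called in either line. Ctcf was at 84.0 and 85.4 CPM in normal 3T3 cells and at 89.8 and 87.0 CPM in induced cells, a log2 fold change of 0.06 (SE 0.05, 95% interval -0.04 to 0.16, adjusted p = 0.364). In empty-vector Scid.adh cells it read 313 and 310.3 CPM and in knockout cells 278 and 300.4 CPM, a log2 fold change of -0.11 (SE 0.06, interval -0.24 to 0.03, adjusted p = 0.211). The libraries of the 2 groups did not overlap in either line. That held for 23 of 34 tested genes of the set in 3T3 and 23 of 32 in Scid.adh, and the share over all genes was not counted. In Scid.adh the interval leaves room for a fall of the size called for Rad21 (-0.20). In 3T3 it stops just short of the smallest called rise, 0.17 for Top2b, and of the smallest called fall, -0.11 for Nipbl. Exons of Ctcf overlap those of Agrp on the opposite strand, and the sources used here do not give the strand setting of the counts. The same overlap with an antisense gene holds for Stag2, Pds5a, Ldb1, Ncapg, Ncaph2, Lbr, Top2b, Hmgb1, Hmga1 and Hmga2, whose counts are uncertain to that extent.

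Of the 5 subunits of the cohesin ring, RAD21, the kleisin that closes it, was the one called lower in both lines, though neither call held after the centring along level (-0.08 in 3T3 and -0.02 in Scid.adh). Rad21 (chr15:51962240-51991747, minus strand, GRCm38) read 289 and 283 CPM in normal and 257 and 263 CPM in induced 3T3 cells, and 820.1 and 806 CPM in empty-vector and 699 and 715 CPM in knockout Scid.adh cells. Both libraries of the changed cells were below both controls in each line, although TCF-1 went up in one and down in the other. The log2 fold changes were -0.14 (SE 0.04, adjusted p = 0.00263) and -0.20 (SE 0.06, adjusted p = 0.0153). Smc1a, which encodes an SMC arm of the ring, fell in Scid.adh from 743 and 723 CPM to 614 and 609 CPM, a log2 fold change of -0.26 (SE 0.06, adjusted p = 0.00413). In 3T3 it read 309 and 319.9 CPM before and 301 and 294 CPM after induction (-0.08, adjusted p = 0.087) and was not called. Smc3, the partner arm, was not called in either line (-0.03 and 0.08).

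The STAG subunits are alternatives within the ring, and STAG2 is the more abundant one in these cells. Stag2 was at 259.9 and 263 CPM in normal and at 221 and 249 CPM in induced 3T3 cells, a log2 fold change of -0.15 (SE 0.04, adjusted p = 0.00248). In empty-vector Scid.adh cells it read 360.2 and 372 CPM and in knockout cells 395 and 437 CPM, a log2 fold change of 0.19 (SE 0.07, adjusted p = 0.0454). Stag2 was the one gene of the set called lower with TCF-1 gained and higher with it lost. Its Scid.adh call was lost in DESeq2 (adjusted p = 0.1), and in edgeR without the filter on low counts (0.208) and with a replicate block (0.0633). Stag1 was called in neither line: it read 125 and 120.4 against 112 and 124 CPM in 3T3 (-0.06, adjusted p = 0.341) and 217 and 218 against 189 and 211 CPM in Scid.adh (-0.12, adjusted p = 0.208). Per kilobase of exon, Stag2 made up 74.8% and 75.7% of the 2 transcripts in normal and 73.8% and 74.1% in induced 3T3 cells. In Scid.adh its share was 70.3% and 70.9% in empty-vector cells and 74.9% and 74.7% in knockout cells. With 2 libraries against 2 an exact two-sided permutation test of such a share cannot go below p = 0.333, so none is given. The cohesin core calls in Scid.adh did not survive the loss of an empty-vector library. Without library 1 and without library 2 of that group the log2 fold changes were -0.20 and -0.23 for Rad21, -0.25 and -0.29 for Smc1a and 0.15 and 0.20 for Stag2, all not called. In 3T3 the call of Rad21 ended without normal library 1 (-0.12) or 2 (-0.15), and that of Stag2 without normal library 2 (-0.14) or induced library 1 (-0.06).

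Loading and release factors moved little. NIPBL and MAU2 load cohesin onto DNA, and Nipbl fell in 3T3 from 334 and 328 CPM to 297 and 317 CPM, a log2 fold change of -0.11 (SE 0.04, adjusted p = 0.0153). In Scid.adh Nipbl read 666 and 689 CPM and then 570.0 and 668 CPM, groups that overlapped (-0.13, adjusted p = 0.187). Mau2 had log2 fold changes of -0.13 in 3T3 (adjusted p = 0.0519) and 0.02 in Scid.adh. WAPL, which opens the ring, and PDS5A and PDS5B, its partners in release and pausing, were called in neither line, with log2 fold changes between -0.09 and -0.00 in 3T3 and all at -0.03 in Scid.adh. The 3T3 call of Nipbl ended under 6 of 10 alternatives, among them DESeq2 and the fits without normal library 1 (-0.10), without normal library 2 (-0.12) and without induced library 1 (-0.06).

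Among the 4 genes of the acetylation cycle, which locks cohesin on DNA and resets it, only Esco1 was called, and only in Scid.adh. ESCO1 is an acetyltransferase of SMC3. Its transcript read 53.1 and 51.9 CPM in empty-vector cells and 64.9 and 70.6 CPM in knockout cells, both above both controls. The log2 fold change was 0.37 (SE 0.09, adjusted p = 0.00828). In 3T3 Esco1 read 22.5 and 24.0 CPM before and 24.0 and 28.2 CPM after induction (0.16, adjusted p = 0.159). Without empty-vector library 2 the Scid.adh value was 0.34 and no longer called. Esco2, the S phase acetyltransferase, was low in 3T3, between 7.48 and 11.8 CPM, with a log2 fold change of -0.32 (adjusted p = 0.0541), which became -0.37 and was called after the centring along level, and read 0.12 in Scid.adh. Hdac8, the SMC3 deacetylase, had -0.07 and -0.26, and Cdca5, whose product sororin protects acetylated cohesin, had 0.11 and 0.02.

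YY1 and LDB1 join enhancers to promoters, and both transcripts fell when TCF-1 was induced in 3T3. Yy1 (chr12:108792973-108820148, plus strand) went from 173 and 177 CPM to 149 and 153 CPM, a log2 fold change of -0.22 (SE 0.04, adjusted p = 4.03e-05). Ldb1 (chr19:46031570-46045214, minus strand) went from 156 and 151 CPM to 136 and 131 CPM, a log2 fold change of -0.20 (SE 0.04, adjusted p = 0.00025). Neither gene's groups overlapped, and both calls held under all 10 alternatives. In Scid.adh Yy1 read 257 and 238 against 219 and 235 CPM (-0.13, adjusted p = 0.172). Ldb1 read 144 and 142 against 125 and 131 CPM there (-0.15, adjusted p = 0.102). Neither passed the threshold. Their groups did not overlap, which held for 23 of the 32 tested genes of the set in Scid.adh, and the share over all genes was not counted. After the centring along level the Scid.adh values were -0.01 for Yy1 and -0.07 for Ldb1.

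**Figure D3:**
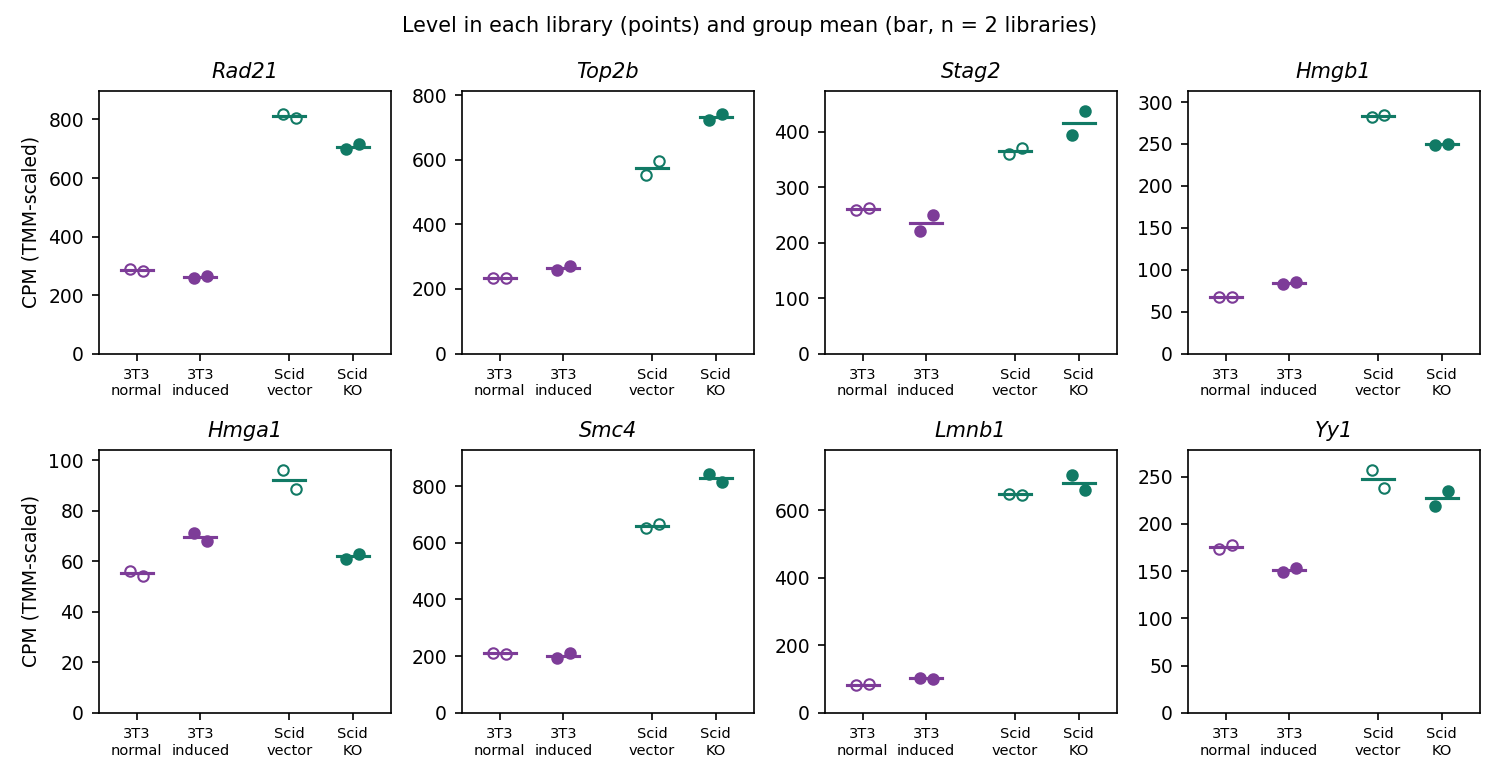
CPM (TMM-scaled within each line, axes from 0) of 8 genes in every library: points are libraries, open in control cells and filled in changed cells, and bars are group means, n = 2. Rad21 falls and Top2b rises in both lines, Stag2, Hmgb1 and Hmga1 move in opposite directions in the 2 lines, Smc4 is called in Scid.adh alone, and Lmnb1 and Yy1 in 3T3 alone.

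Both condensins are built on the SMC2 and SMC4 pair, and Smc4 was higher in the Scid.adh knockout. It rose from 651 and 667 CPM to 843 and 812 CPM, a log2 fold change of 0.33 (SE 0.06, adjusted p = 0.00104). Smc2 went the same way, from 402 and 404 CPM to 454 and 440.2 CPM, without passing the threshold (0.15, SE 0.06, adjusted p = 0.0675), and was called after the centring along level. In 3T3 Smc2 fell from 74.7 and 76.2 CPM to 66.9 and 70.3 CPM (-0.14, SE 0.05, adjusted p = 0.0359). Smc4 was there at 211 and 209 CPM before and at 192 and 211 CPM after induction (-0.06, adjusted p = 0.278), and its groups overlapped. The Scid.adh call of Smc4 ended without empty-vector library 1 (0.30), and the 3T3 call of Smc2 ended under 6 of 10 alternatives, among them the fits without normal library 1 (-0.15), without normal library 2 (-0.12) and without induced library 1 (-0.10).

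Of the subunits particular to condensin I, namely Ncapd2, Ncapg and Ncaph, 0 of 3 were called in either line, although Ncapg was called in Scid.adh after the centring along level (0.26). Their log2 fold changes ran from -0.14 to -0.03 in 3T3 and from -0.08 to 0.18 in Scid.adh, where Ncapg had an adjusted p of 0.0601. Condensin II, the complex present in the nucleus throughout interphase, had 1 subunit called in each line. Ncapg2 (chr12:116405402-116463731, plus strand) read 60.7 and 65.4 CPM in normal and 48.1 and 51.5 CPM in induced 3T3 cells. The log2 fold change was -0.35 (SE 0.06, adjusted p = 7.18e-06), and the call held under all 10 alternatives. In Scid.adh its groups overlapped, at 251 and 259.8 CPM against 234 and 278 CPM (0.00, SE 0.08, adjusted p = 0.985). Ncaph2 fell in Scid.adh from 189.8 and 194 CPM to 177 and 154 CPM (-0.21, SE 0.07, adjusted p = 0.0458), a call that held under 4 of 10 alternatives. It ended in DESeq2, with the size factors of DESeq2, and after the centring along level. It also ended without empty-vector library 1 (-0.24) or 2 (-0.21) or knockout library 2 (-0.11). It was at 118 and 119 CPM before and at 114 and 110.1 CPM after induction in 3T3 (-0.08, adjusted p = 0.183). Ncapd3 was called in neither line (0.15 and -0.11). Per kilobase, the 3 condensin II subunits made up between 60.5% and 61.5% of the non-SMC condensin transcripts in the 4 3T3 libraries and between 46.1% and 49.2% in the 4 Scid.adh libraries.

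Condensin subunits, Esco2, Cdca5, Lmnb1, Hmgb2 and Lbr are known to follow proliferation in many cells. Of 25 S phase genes, 8 rose and 3 fell in 3T3 with a median log2 fold change of 0.12, and 0 rose and 5 fell in Scid.adh with a median of -0.12. Of all tested genes, 18.5% rose and 18.3% fell in 3T3 and 15.6% rose and 15.9% fell in Scid.adh. Among the S phase genes Cdc6 (0.73) and Tyms (0.54) rose and Cdt1 (-0.88) fell in 3T3, while Tyms (-0.60), Cdc6 (-0.30) and Cdt1 (-0.25) all fell in Scid.adh. Of 25 genes of the G2 and M phases, 2 rose and 3 fell in 3T3 and 0 rose and 3 fell in Scid.adh, with medians of 0.01 and -0.09. Ube2c (0.35) rose and Bub1 (-0.36) and Cenpa (-0.35) fell in 3T3, and Cdc20 (-0.40), Bub1b (-0.38) and Plk1 (-0.37) fell in Scid.adh. In empty-vector Scid.adh libraries the S phase list summed to 6805 and 6813 CPM and the G2 and M list to 6837 and 6908 CPM. All tested genes there from 100 to 1000 CPM had a median of -0.11, with 7.58% called higher and 32.8% lower. The Scid.adh falls of the 2 lists were not set apart from this trend with level. The part of the S phase, G2 and M changes in the values of the condensin, lamin and HMG genes was not tested.

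At the nuclear lamina the lines differed in which lamins they expressed as well as in what changed. Lmnb1, the gene for lamin B1, rose in 3T3 from 81.5 and 85.0 CPM to 103 and 101 CPM, a log2 fold change of 0.29 (SE 0.05, adjusted p = 4.26e-06) that held under all 10 alternatives. In Scid.adh it read 648 and 647 CPM and then 704 and 659 CPM (0.07, adjusted p = 0.37). Lmnb2 read 15.8 and 13.5 CPM before and 16.9 and 17.3 CPM after induction in 3T3, a value that missed the threshold (0.22, SE 0.10, adjusted p = 0.0779). In Scid.adh Lmnb2 fell from 165 and 164 CPM to 143 and 146 CPM (-0.19, SE 0.06, adjusted p = 0.0436), a call that held under 5 of 10 alternatives. The Lmnb2 call ended in DESeq2, with a replicate block, after the centring along level, and without empty-vector library 1 (-0.19) or 2 (-0.20). LBR, the inner membrane receptor that holds heterochromatin by way of lamin B, had its transcript fall in 3T3 from 53.4 and 56.4 CPM to 46.2 and 47.1 CPM. The log2 fold change was -0.24 (SE 0.06, adjusted p = 0.00153), and it was -0.20 and not called without normal library 2. In Scid.adh Lbr was at 574 and 551 CPM before and at 531 and 572 CPM after the loss of Tcf7, groups that overlapped (-0.03, adjusted p = 0.765).

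Lmna, which encodes lamins A and C and is known to be low in immature lymphoid cells, was the most abundant gene of the set per kilobase in 3T3 and close to absent in Scid.adh. It read 628 and 635 CPM in normal and 664 and 623 CPM in induced 3T3 cells, with no call (0.03, adjusted p = 0.575) except after the centring along level, where the value was 0.08. In Scid.adh it had 1 and 8 counts with the empty vector and 5 and 12 counts in the knockout. Per kilobase, Lmna made up 77.5% and 77.4% of the transcripts of the 3 lamin genes in normal 3T3 cells and 74.6% and 73.7% in induced cells. Lmnb1 made up 19.8% and 20.4% of them in normal and 22.8% and 23.5% in induced 3T3 cells, and between 85.0% and 87.6% in the Scid.adh libraries.

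Topoisomerase II beta, the DNA-passing enzyme found at loop anchors in non-dividing as well as dividing cells, was the one gene of the set called higher in both lines. Top2b (chr14:16365179-16435462, plus strand) went from 233 and 235 CPM to 258 and 270.2 CPM in 3T3, and from 554 and 597 CPM to 723 and 743 CPM in Scid.adh. In each line both changed libraries lay above both controls. The log2 fold changes were 0.17 (SE 0.04, adjusted p = 0.000221) and 0.35 (SE 0.06, adjusted p = 0.00106). The 3T3 call held under all 10 alternatives, and the Scid.adh call ended only without empty-vector library 1 (0.28).

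Among the HMG genes, Hmga1 had the largest fall of the set in Scid.adh. Hmga1, whose product binds the minor groove of AT-rich DNA, was at 56.1 and 54.3 CPM in normal and at 71.0 and 68.1 CPM in induced 3T3 cells. Empty-vector Scid.adh cells had 96.1 and 88.4 CPM and knockout cells 61.0 and 62.7 CPM. The transcript was thus higher in both libraries with more TCF-1 in each line. Its log2 fold changes were 0.34 (SE 0.06, adjusted p = 3.61e-06) and -0.58 (SE 0.08, adjusted p = 0.000334), which are changes of 1.26-fold and 1.49-fold. Both held under all 10 alternatives, and it was the only one of the 11 Scid.adh calls to do so. Hmgb1, an abundant DNA-bending protein, moved the same way, from 67.5 and 67.7 CPM to 83.2 and 85.1 CPM in 3T3 (0.31, SE 0.05, adjusted p = 3.05e-06) and from 282 and 285 CPM to 249 and 249.9 CPM in Scid.adh (-0.18, SE 0.06, adjusted p = 0.0323). Hmgb1 has 10 named pseudogenes that could share reads with it, and its Scid.adh call held under 5 of 10 alternatives. It ended in DESeq2, with a replicate block, after the centring along level, and without empty-vector library 1 (-0.20) or 2 (-0.19).

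Hmga2, the relative of Hmga1 that is typical of embryonic and mesenchymal cells, moved against it in 3T3. It fell from 230.2 and 235 CPM to 179 and 200.5 CPM, a log2 fold change of -0.30 (SE 0.04, adjusted p = 1.36e-07) that held under all 10 alternatives. In Scid.adh it had 4 and 3 counts with the empty vector and 4 and 3 counts in the knockout. Per kilobase, Hmga2 made up 56.3% and 57.6% of the transcripts of the pair in normal 3T3 cells and 44.2% and 48.0% in induced cells, so Hmga1 went from the lesser to the greater part. Hmgb2, the relative of Hmgb1 linked to dividing cells, was at 41.1 and 42.8 CPM in normal and at 43.6 and 41.0 CPM in induced 3T3 cells (0.02, adjusted p = 0.892). In Scid.adh Hmgb2 fell from 509.9 and 525 CPM to 455 and 411 CPM (-0.26, SE 0.06, adjusted p = 0.00921), a call that ended without empty-vector library 1 (-0.29) or 2 (-0.25).

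Promoter sequences were read for these genes because TCF-1 binds the letters CTTTGA or CTTTGT. RefSeq entries on GRCm38.p6 were matched for 27 of the 34 genes, with 35 transcription starts. The 250 bases before each start were searched on both strands. Rad21, Stag2, Nipbl, Esco1, Esco2, Smc4 and Lmnb1 had no entry and were not searched. All of these but Esco2 were called in at least 1 line. Either TCF letter string occurred before 1 of 35 starts (2.86%), that of Hmga2, and before 27.6% of all 32851 starts in the table. CCAAT occurred before 14 starts (40.0%, against 33.9% of all starts), and GGGCGG, the core of SP1 and KLF sites, before 26 (74.3%, against 32.7%). The windows of the set were rich in G and C, with a median of 64.4% and a median of 20 CpG dinucleotides, against 52.4% and 6 over all starts. A match is only these letters in this window, and their absence says nothing of TCF-1 elsewhere. The 5 windows below were chosen, after their values were seen, to show genes of different direction: Hmga1 (chr17:27556324-27556573, plus strand) and Hmgb1 (chr5:149053058-149053307, minus strand), which were called higher with TCF-1 gained and lower with it lost, Top2b (chr14:16364956-16365205, plus strand), higher in both, and Ncapg2 (chr12:116405186-116405435, plus strand) and Hmga2 (chr10:120476470-120476719, minus strand), lower in 3T3. Each is printed 5′ to 3′ on the strand of its gene, ending at the base before the start, with capitals for the TCF letters, CCAAT and GGGCGG on either strand (ATTGG and CCGCCC on the reverse). The capitals show 3 GGGCGG cores before Hmga1, 3 CCAAT boxes before Hmgb1, 2 CCAAT boxes and 1 GGGCGG core before Top2b, 2 GGGCGG cores before Ncapg2, and before Hmga2 a CTTTGT from 219 to 214 bases ahead of the start with 1 GGGCGG core nearer to it. Other starts of a gene can differ: a second Hmgb1 start has 0 CCAAT boxes and 4 GGGCGG cores, and a second Hmga1 start has 4 GGGCGG cores.
Hmga1: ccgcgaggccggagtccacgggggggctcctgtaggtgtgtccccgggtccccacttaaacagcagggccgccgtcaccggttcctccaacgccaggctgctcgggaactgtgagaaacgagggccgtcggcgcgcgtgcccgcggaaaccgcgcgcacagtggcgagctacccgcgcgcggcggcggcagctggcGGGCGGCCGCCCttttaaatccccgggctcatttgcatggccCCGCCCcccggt
Hmgb1: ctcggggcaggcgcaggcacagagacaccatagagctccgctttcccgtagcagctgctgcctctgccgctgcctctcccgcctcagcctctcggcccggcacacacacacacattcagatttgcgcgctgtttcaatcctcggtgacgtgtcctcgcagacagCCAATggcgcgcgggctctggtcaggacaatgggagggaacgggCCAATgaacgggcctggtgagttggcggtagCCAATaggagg
Top2b: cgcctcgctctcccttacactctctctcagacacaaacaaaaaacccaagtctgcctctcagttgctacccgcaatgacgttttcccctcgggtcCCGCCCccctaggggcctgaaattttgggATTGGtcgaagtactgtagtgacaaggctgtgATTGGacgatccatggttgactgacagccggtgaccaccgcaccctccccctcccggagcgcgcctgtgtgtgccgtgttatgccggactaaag
Ncapg2: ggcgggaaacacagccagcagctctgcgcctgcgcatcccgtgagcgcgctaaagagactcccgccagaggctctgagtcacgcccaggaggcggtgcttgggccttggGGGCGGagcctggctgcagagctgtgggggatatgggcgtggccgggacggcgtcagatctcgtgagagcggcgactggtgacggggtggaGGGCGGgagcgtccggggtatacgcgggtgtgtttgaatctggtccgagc
Hmga2: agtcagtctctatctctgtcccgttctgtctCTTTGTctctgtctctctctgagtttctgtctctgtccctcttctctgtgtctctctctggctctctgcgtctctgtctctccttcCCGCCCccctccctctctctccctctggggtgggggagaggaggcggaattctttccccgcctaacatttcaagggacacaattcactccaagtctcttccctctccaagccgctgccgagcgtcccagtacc

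Set side by side, the lines shared 5 called genes: Rad21 (lower in both changed groups), Top2b (higher in both), Hmgb1 and Hmga1 (higher with TCF-1 gained and lower with it lost) and Stag2 (the reverse). Of 11038 genes tested in both lines, 13.6% were called in both: 3.17% lower in both, 2.6% higher in both, 4.77% higher with TCF-1 gained and lower with it lost, and 3.06% the reverse. A further 8 genes of the set were called in 3T3 alone and 6 in Scid.adh alone, and 15 in neither line. Hmga2 among the 8 and Lmna among the 15 were not tested in Scid.adh. Of all tested genes, 36.8% were called in 3T3 and 31.5% in Scid.adh, and the share called in a single line was not counted. Whether the change with TCF-1 itself differed was tested in a joint fit of all 8 libraries as induced minus normal, minus the difference of empty vector and knockout. That test called 15 of the 34 genes, beside 28.8% of 15854 tested genes. The 34 include Lmna and Hmga2, which had at most 12 counts in any Scid.adh library and were not called. The 15854 also hold genes outside the 11038 tested in both lines, so the 2 shares are not of like genes. In the joint test the change with higher TCF-1 was more upward in 3T3 for 4 genes, against 14.5% of all genes. It was more downward for 11, against 14.3%. The median of this difference was -0.14 over the set and 0.07 over all tested genes. The 4 were Top2b (0.48, adjusted p = 5e-06), Esco1 (0.48, 0.00464 adjusted), Lmnb1 (0.32, 0.00175 adjusted) and Smc4 (0.23, 0.0203 adjusted). Among the 11 were the looping genes Ldb1 (-0.40, adjusted p = 0.000325) and Yy1 (-0.38, 0.000349 adjusted) and the cohesin genes Smc1a (-0.38), Rad21 (-0.38), Nipbl (-0.28) and Stag1 (-0.22). The others were Ncapg2 (-0.38), Ncaph2 (-0.34), Lbr (-0.31), Hmgb2 (-0.29) and Hmga1 (-0.28). With the centring along level, 7 genes were called more upward and 1 more downward, beside 14.0% and 10.5% of all tested genes, and only Ldb1, Lmnb1 and Top2b of the 15 kept their call in all 13 alternatives. Line, vector system, gene table and the doxycycline of the induced 3T3 cells cannot be told apart in this test. Nor can the gain or loss of Tcf7 and its size, a 65.8-fold rise in 3T3 and a 2.08-fold fall in Scid.adh.

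The control cells of the lines also differed in level. In counts per length of merged exon and library size (RPKM), 31 of the 34 genes were higher in empty-vector Scid.adh cells than in normal 3T3 cells, as were 47.7% of all genes in the joint fit. The median ratio of Scid.adh to 3T3 was 2.82 over the set and 0.929 over those genes. No test between lines was made, since their gene tables were made separately. In normal 3T3 cells the highest means were 108 RPKM ± 0.899 (SD, n = 2) for Lmna, 67.6 ± 0.990 for Rad21, 54.5 ± 1.35 for Smc1a, 52.0 ± 2.10 for Smc3 and 40.3 ± 0.365 for Smc4. Below Lmna, Rad21, Smc1a and Smc3 of the cohesin ring thus led the order, while its STAG genes lay lower (Stag2 31.6 and Stag1 10.4 RPKM). Smc1a and Smc3 did not differ beyond their spread. In empty-vector Scid.adh cells they were 219 RPKM ± 0.457 for Lmnb1, 192 ± 2.33 for Rad21, 172 ± 3.66 for Hmgb2, 127 ± 2.51 for Smc1a and 126 ± 2.11 for Smc4, the last 2 within their spread. The widest ratios in favour of Scid.adh were 12.3 for Hmgb2, 11.2 for Lmnb2, 10.2 for Lbr, 7.78 for Lmnb1 and 7.06 for Cdca5, and those genes were mostly of the lamina or tied to dividing cells. Stag2 (1.40), Yy1 (1.41) and Mau2 (1.12) were nearest to equal among the genes higher in Scid.adh. Only Lmna, Hmga2 and, by a ratio of 1.07, Ldb1 were higher in 3T3.

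**Figure D4:**
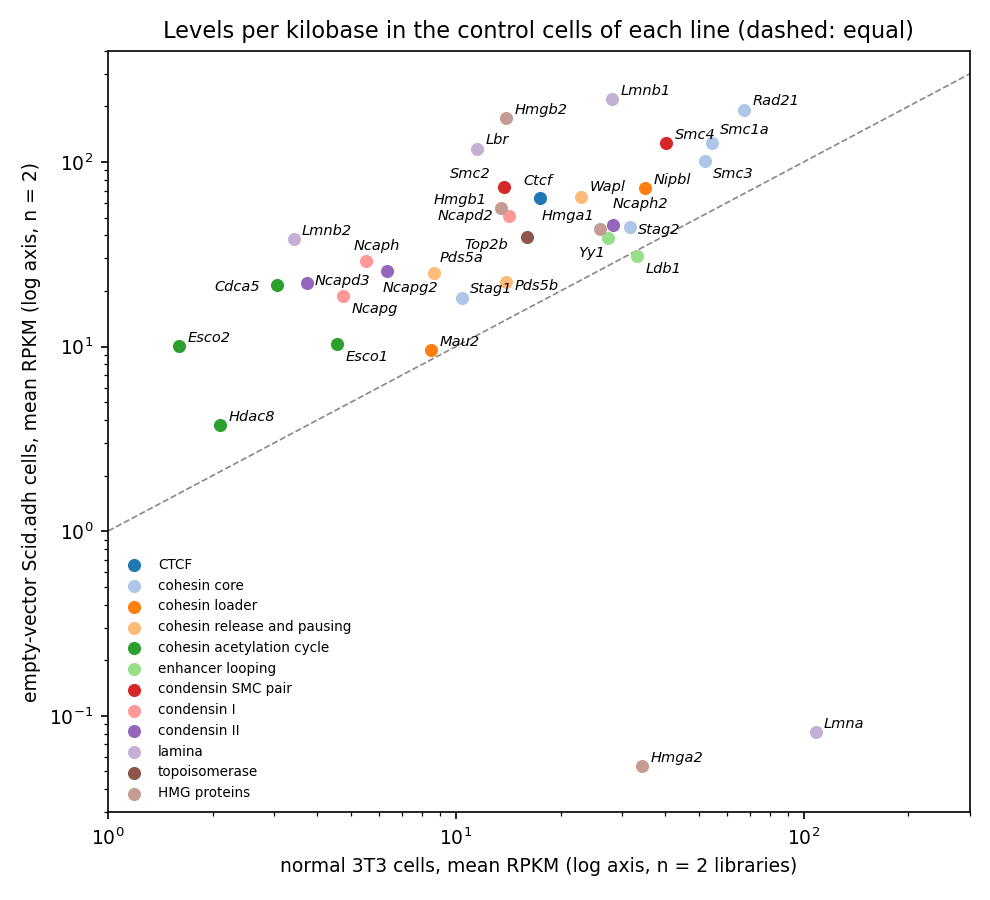
Mean RPKM of the 34 genes in normal 3T3 cells (horizontal) and empty-vector Scid.adh cells (vertical), both on log axes, n = 2 libraries per mean, coloured by complex, with the line of equal level dashed. Of the 34 genes 31 lie above the line, and Lmna and Hmga2 lie far below it, at under 0.1 RPKM in Scid.adh.

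Neighbouring genes of the same pathways were counted from 4 further lists, to be read beside 36.8% of all tested genes called in 3T3 and 31.5% in Scid.adh. Of relatives of cohesin and other loop factors, 5 of 21 tested rose and 1 fell in 3T3, and 1 of 19 rose and 7 fell in Scid.adh, with medians of 0.00 and -0.07, so that 28.6% and 42.1% of the list were called. The 3T3 rises were led by the single-stranded DNA binding proteins that stabilise LDB1: Ssbp4 (28.8 and 27.6 CPM to 41.3 and 38.6, log2 fold change 0.51), Ssbp2 (0.39) and Ssbp3 (0.38), while Ldb1 itself fell. In Scid.adh the mediator subunit gene Med12 fell from 171 and 165 CPM to 103 and 120.1 CPM (-0.59, adjusted p = 0.000191) and Espl1, the gene of the separase that cuts RAD21, fell by 0.56 on the log2 scale. Stag3, the meiotic STAG subunit gene, rose there from 3.73 and 8.97 CPM to 16.1 and 14.0 CPM (1.25, SE 0.30, adjusted p = 0.00836). The SMC5/6 list had 2 of 10 genes higher and 4 lower in 3T3 and 0 higher and 1 lower in Scid.adh. The called share was thus 60% in 3T3, above that of all genes, and 10% in Scid.adh, below it. Eid3 was the one called in both, at low levels. It went from 7.07 and 6.55 CPM to 3.53 and 3.17 CPM in 3T3 (-1.01, SE 0.17). In Scid.adh it went from 10.9 and 8.01 CPM to 2.68 and 6.17 CPM (-1.09, SE 0.32). Slf2 fell (-0.33) and Nsmce1 rose (0.27) in 3T3.

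Nuclear envelope genes were split, with 6 of 22 higher and 6 lower in 3T3 and 2 of 21 higher and 1 lower in Scid.adh. That is 54.5% and 14.3% of the list, beside 36.8% and 31.5% of all tested genes. The nesprin genes, whose products tie the nucleus to the cytoskeleton, fell in 3T3: Syne1 from 304 and 313 CPM to 174 and 178 CPM (-0.81, SE 0.04, adjusted p = 3.32e-22), and Syne2 by 0.56 on the log2 scale. Nrm, the nurim gene, rose (0.56) from a low level. In Scid.adh Sun2, the inner membrane partner of nesprins, rose (0.29) and Banf1, whose product bridges DNA and the envelope, fell (-0.24). The list of nucleosome and linker proteins had 11 of 24 genes higher and 3 lower in 3T3, with a median of 0.14, and 2 of 22 higher and 7 lower in Scid.adh, with a median of -0.12. Among all tested genes 18.5% were higher and 18.3% lower in 3T3, and 15.6% higher and 15.9% lower in Scid.adh. In Scid.adh these shares changed with level, to 7.58% and 32.8% from 100 to 1000 CPM. Hmgb3 (0.68), Hmgn3 (0.64) and Hmgn5 (0.42) rose in 3T3. In Scid.adh the nucleosome-binding gene Hmgn1 fell from 74.3 and 74.4 CPM to 7.05 and 9.02 CPM, a log2 fold change of -3.21 (SE 0.13, adjusted p = 6.2e-09), and Hmgn5 fell from 298 and 323 CPM to 188 and 178 CPM (-0.76). H1fx, a linker histone gene, rose there from 3.53 and 3.74 CPM to 10.8 and 9.61 CPM (1.49). No gene of the 34 moved as far as Hmgn1.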

How the data were processed

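The authors deposited 1 file of whole-number gene counts per library, used here as raw counts. Per the labels' protocols, the kit was stranded, for low amounts of total RNA, and reads were paired. STAR 2.5.0a, HTSeq 0.6.1 and GRCm38 (mm10) are named in the submitters' processing notes; for the annotation release and strand setting, the entry is "not given in the sources used here". Rows of unassigned reads, which only Scid.adh files hold, were dropped (reads outside any gene were 21.3% to 25.8% of those files).

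Symbols, exon lengths and overlaps came from GENCODE M21. Each line was fitted alone with edgeR 4.0.16 in R 4.3.3: filterByExpr, TMM, robust quasi-likelihood F-test, Benjamini-Hochberg adjustment over all tested genes, calls under 0.05. Replicate scatter (the biological coefficient of variation) came to 2.41% for 3T3 and 5.94% for Scid.adh, which sets the smallest change that 2 libraries a group could show. The difference between lines used all 8 libraries. The steps were tested on simulated data. Alternatives were DESeq2 1.42.0 and its size factors, no filter, a loess correction against expression level (span 0.3), a replicate block, a joint fit, and leaving out each library. The set of genes and the lists were chosen with earlier results of these data known. Named were Tcf7, Ctcf, all 34 genes of the set and, per list and line, up to 3 called genes with the largest fold change, a mean level of 5 CPM or more and groups that did not overlap.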

Additional observations from a re-analysis of the deposited data

Results flagged for a closer look

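The change with higher TCF-1 differed between the lines for 15 of the 34 genes in the joint test, beside 28.8% of all 15854 tested genes. Not all of these genes were tested in both lines, and Lmna and Hmga2 of the 34 were not tested in Scid.adh alone. As 3T3 minus Scid.adh on the log2 scale, the values were 0.48 for Esco1, 0.23 for Smc4, 0.32 for Lmnb1 and 0.48 for Top2b. They were -0.38 for Rad21, -0.38 for Smc1a, -0.22 for Stag1, -0.28 for Nipbl, -0.38 for Yy1, -0.40 for Ldb1, -0.38 for Ncapg2, -0.34 for Ncaph2, -0.31 for Lbr, -0.29 for Hmgb2 and -0.28 for Hmga1. Top2b and Rad21 were each called the same way with TCF-1 gained and with it lost. Of the 15 calls, 3 (Ldb1, Lmnb1 and Top2b) held under all 13 alternatives, and with the loess correction against expression level 7 genes were called higher and 1 lower. Stag1 kept its call in 3 of 13 alternatives, Smc4 in 5 and Hmga1, which moved with TCF-1 in both lines, in 6.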

How the results depend on the processing

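For the set, calls higher and lower in 3T3 numbered 4 and 9, and leaving out each library in turn gave 4 to 14 falls. In Scid.adh they numbered 4 and 7, with 1 to 7 rises and 1 to 13 falls on leaving out a library, 8 and 1 with the loess correction against expression level, and 3 and 4 in DESeq2. In the difference between lines they numbered 4 and 11, with 2 to 4 and 7 to 13 on leaving out a library, 7 and 1 with loess, and 2 and 9 in DESeq2. Over all genes, DESeq2 called 1961 higher and 2012 lower in 3T3, and 880 and 1080 in Scid.adh, where leaving out a library gave 1059 to 1911 and 1162 to 2321. Replicate numbers did not pair the libraries: deviations of libraries with the same number correlated at 0.0124 in 3T3 and 0.00147 in Scid.adh. With the replicate block the set had 4 rises and 12 falls in 3T3 and 3 and 5 in Scid.adh, and the difference was called for 4 and 10 genes.

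Within the lines, sign changes were seen only in genes that were not called. With the loess correction, log2 fold changes in Scid.adh became 0.020 for Ctcf, 0.037 for Nipbl, 0.11 for Wapl, 0.12 for Pds5a, 0.083 for Pds5b, 0.063 for Ncapd2, 0.0026 for Ncaph and 0.13 for Lbr, and in 3T3 0.023 for Smc3 and 0.037 for Pds5b. Without the filter they were -0.034 for Mau2, -0.036 for Cdca5 and -0.053 for Ncapg2 in Scid.adh, and in the joint fit -0.0011 for Mau2, -0.0039 for Cdca5 and -0.021 for Ncapg2, with -0.0053 for Hmgb2 in 3T3. Pds5b in 3T3 was 0.00036 with DESeq2 size factors, 0.0013 in DESeq2 and 0.0016 with the replicate block, which gave -0.0023 for Ncapg2 in Scid.adh. Leaving out a library gave, in 3T3, -0.067 to 0.015 for Smc3, -0.14 to 0.019 for Stag1, -0.031 to 0.035 for Pds5b, -0.23 to 0.10 for Hdac8, -0.0052 to 0.20 for Cdca5, -0.13 to 0.013 for Smc4, -0.11 to 0.039 for Ncaph, -0.016 to 0.071 for Lmna and -0.030 to 0.056 for Hmgb2. In Scid.adh it gave -0.11 to 0.14 for Mau2, -0.12 to 0.039 for Wapl, -0.10 to 0.026 for Pds5a, -0.11 to 0.046 for Pds5b, -0.091 to 0.12 for Cdca5, -0.20 to 0.024 for Ncaph, -0.12 to 0.11 for Ncapg2 and -0.079 to 0.015 for Lbr. The cause of these shifts was not tested. With 2 libraries a group and a replicate scatter of 5.94%, changes of the size seen in Scid.adh lie near what the test can call.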
